A study of Homo sapiens with 24 samples.

Results

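The AP-1 and EGR transcription factors were followed in U251 cells, an established human glioblastoma (GBM) cell line, after exposure to G-1, an agonist of the G protein-coupled estrogen receptor GPER. The 10 genes were *FOS*, *FOSB*, *FOSL1*, *FOSL2*, *JUN*, *JUNB*, *JUND*, *EGR1*, *EGR2* and *EGR3*. They were found by matching the RefSeq transcript that names each array probe to a gene symbol, and each was measured by 1 probe. These 10 probes stood among 58118 probes with a value on every array, which named 24817 genes. A probe was tested when some group had it well above background on each of its 4 arrays, which held for 9 of the 10 and for 22970 probes in all. *EGR3* was above background on 1 of 24 arrays, in DMSO 24 h, and was not tested.

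U251 cells were kept without steroid hormones in charcoal-stripped serum for 24 h before treatment, in all 6 groups. They then received the solvent DMSO (0.1% per the labels; the study's methods give another concentration), G-1 at its IC50 or G-1 at 1 µM, for 24 h or 72 h. RNA from 4 independent cultures per group was hybridized to 24 single-color arrays. In 2 groups (IC50 24 h, 1 µM 72 h) another label entry gave the other duration, and the sample titles were followed.

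Slides 1 and 2, scanned in session 1, carried DMSO and IC50 samples, whereas slide 3, scanned in session 2, carried the 8 samples of G-1 1 µM and no other. Differences between G-1 1 µM and the other groups at one duration, and differences between slides, therefore cannot be told apart. In session 1, 41.1% to 44.5% of the RNA spots of an array exceeded the background clearly, and in session 2, 38.0% to 40.7%, and no spot was saturated. All 7 astroglial and glioma markers checked, among them *GFAP*, *VIM*, *NES* and *SOX2*, were above background on all 24 arrays, as were 3 of 3 neuronal markers, whereas 3 of 3 epithelial markers were above background on none. Levels are given as log2 signal after subtraction of the 75th percentile of the array, so that a level of 0 lies at that percentile. Probes differ in brightness, so that a level is compared only with the level of the same probe on other arrays. As these are bulk samples, a change in all cells and a change in a part of them cannot be told apart.

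AP-1 is a dimer of basic leucine zipper (bZIP) proteins, formed by a JUN protein with a FOS protein or with another JUN protein. *FOS*, *FOSB*, *JUN*, *JUNB*, *EGR1*, *EGR2* and *EGR3* are immediate early genes. Growth factors and stress switch them on through kinase cascades without new protein synthesis, whereas *FOSL1* (FRA-1) and *FOSL2* (FRA-2) usually follow later and *JUND* is often present in resting cells. EGR proteins are zinc finger factors that bind GC-rich sites. In glioma, FOSL1 and other AP-1 proteins are known for their ties to invasion and to the mesenchymal expression state.

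The sequence before the transcription start of several members holds known response elements. The windows of 150 bases before the start, from RefSeq on GRCh38.p14, are printed for 6 of the members in which a match was found, to show which elements they share. Both strands were searched for the CArG box, which is the site of serum response factor, for the cyclic AMP response element core TGACGT, for the AP-1 sites TGANTCA and TGACATCA, and for the EGR site GCGNGGGCG. Capitals mark the matches, and ACGTCA is TGACGT on the other strand. No match overlapped another. Bases farther from the start were not searched, so an element not found here may lie outside the window.
*EGR1*, chr5:138465329-138465478, plus strand: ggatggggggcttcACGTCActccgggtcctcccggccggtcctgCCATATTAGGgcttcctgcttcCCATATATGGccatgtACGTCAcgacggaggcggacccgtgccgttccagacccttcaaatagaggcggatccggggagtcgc
*EGR2*, chr10:62816367-62816516, minus strand: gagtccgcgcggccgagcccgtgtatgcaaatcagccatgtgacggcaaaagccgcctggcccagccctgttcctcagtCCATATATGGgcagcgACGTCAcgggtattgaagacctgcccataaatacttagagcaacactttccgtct
*FOS*, chr14:75278678-75278827, plus strand: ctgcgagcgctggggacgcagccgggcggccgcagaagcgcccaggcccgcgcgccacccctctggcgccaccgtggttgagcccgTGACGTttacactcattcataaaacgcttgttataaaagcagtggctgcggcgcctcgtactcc
*FOSB*, chr19:45467846-45467995, plus strand: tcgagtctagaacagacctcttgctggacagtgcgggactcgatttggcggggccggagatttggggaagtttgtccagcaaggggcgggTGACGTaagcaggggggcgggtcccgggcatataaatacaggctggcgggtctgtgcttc
*FOSL2*, chr2:28392708-28392857, plus strand: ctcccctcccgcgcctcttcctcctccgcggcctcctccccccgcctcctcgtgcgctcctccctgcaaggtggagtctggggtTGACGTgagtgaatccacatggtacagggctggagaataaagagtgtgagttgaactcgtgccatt
*JUN*, chr1:58784048-58784197, minus strand: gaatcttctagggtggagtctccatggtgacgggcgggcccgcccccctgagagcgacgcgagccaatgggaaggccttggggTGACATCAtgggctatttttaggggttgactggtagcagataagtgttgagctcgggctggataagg

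The window of *EGR1* held 2 CArG boxes and 2 copies of TGACGT, and the third of 3 *EGR2* starts listed held 1 of each. A single TGACGT stood 64 to 59 bases before the *FOS* start, 60 to 55 before *FOSB*, 66 to 61 before *FOSL2* and 87 to 82 before *JUND*, and TGACATCA stood 67 to 60 bases before *JUN*. None of these letters were found in the window of *JUNB*. *FOSL1* had no window among the sequences used and *EGR3* was left out, so neither was searched. Over 35116 windows of the same length, 0.769% held a CArG box, 5.39% TGACGT, 4.17% TGANTCA, 1.96% TGACATCA and 6.43% GCGNGGGCG.

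When G-1 1 µM had acted for 24 h, most of the AP-1 and EGR genes stood above DMSO. Of the 9 tested, 7 passed an adjusted p of 0.05 in limma, against 30.6% of the 14235 genes tested. Of these, *FOS*, *FOSB*, *FOSL1*, *JUNB*, *JUND* and *EGR1* rose (20.0% of all genes were called higher) and *FOSL2* fell (10.5% called lower). Changes above 2-fold were found for *FOS*, *FOSL1* and *EGR1*, where 0.513% of all genes passed both limits upwards. The arrays of 6 members did not overlap between the groups, beside 30.3% of all genes. The median log2 fold change of the 9 members was 0.81, beside 0.04 over all genes. By size of the fold change from the highest, *EGR1* stood at place 21, *FOSL1* at 23 and *FOS* at 48 of 14235 genes. Of all calls, 65.5% were higher, a share that became 44.2% with the 50th percentile, 54.3% with quantile normalization and 52.6% with normexp background correction.

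After 72 h of G-1 1 µM, 6 of the 9 members passed, against 66.1% of all genes, so that the count itself lay near the background. *FOSB*, *FOSL1*, *JUNB* and *EGR1* rose (35.2% called higher), whereas *FOSL2* and *JUN* fell (31.0% called lower). *FOSL1* and *FOSB* rose by more than 2-fold (4.92% of all genes) and *FOSL2* fell by more than 2-fold (7.42%). *FOSL1* stood at place 110 from the highest of 14235 genes and *FOSL2* at place 13302. As at 24 h, 6 members showed no overlap, here beside 58.7% of all genes. The median log2 fold change was 0.57 for the members and 0.03 for all genes.

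At the IC50, no member passed at either duration in limma, where 0.246% of all genes passed at 24 h and 0.906% at 72 h. The methods' t-test with its 2-fold limit also called no member at the IC50. In size, *JUND*, *FOS*, *EGR1* and *EGR2* stood among the highest fold changes at 24 h, at places 212, 312, 322 and 340 of 14235, with none of the 4 past the threshold. Within slide 1 their differences were 0.42, 0.73, 0.63 and 0.69, in the same order. Within slide 2, where DMSO 24 h had 1 array, they were 0.59, -0.50, -0.09 and -0.29. Of the genes called at the IC50, 88.6% were higher at 24 h and 47.3% at 72 h, shares that became 100.0% and 66.7% with the 50th percentile. The plot of fold changes sets the 4 comparisons with DMSO side by side.

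**Figure D1:**
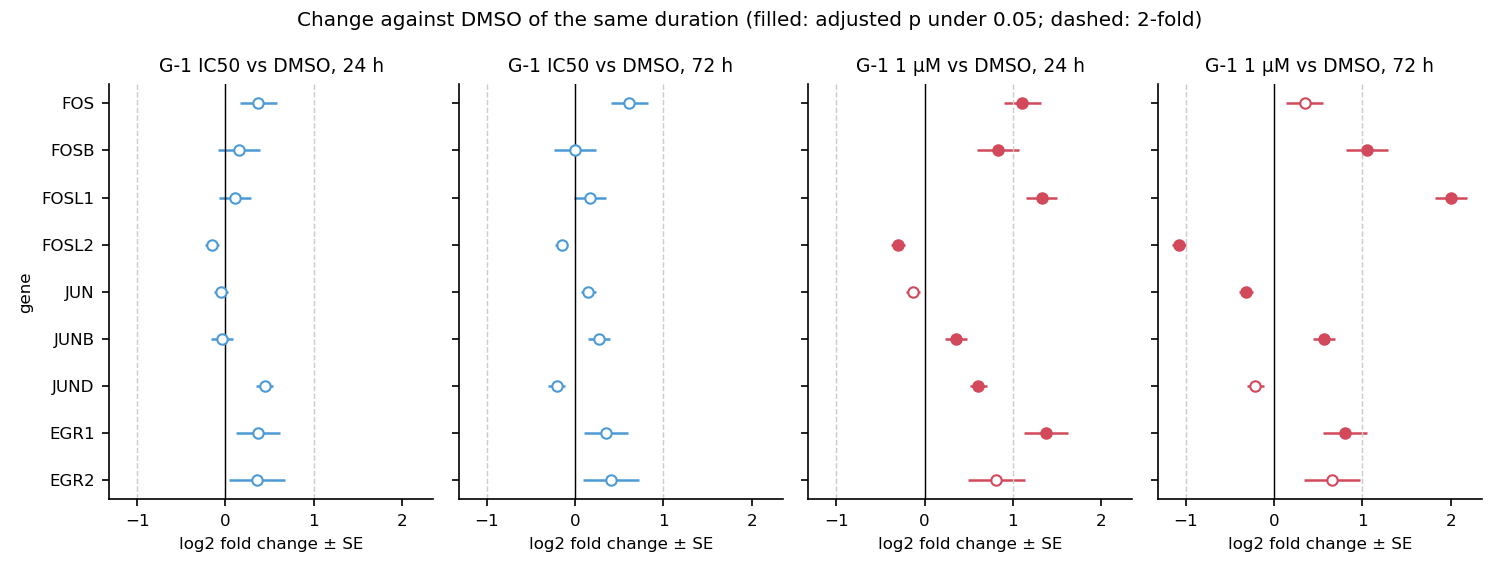
Log2 fold change against DMSO of the same duration (horizontal axis, bars are ± SE of the limma fit) for the 9 tested genes (vertical axis) in 4 panels, 1 for each dose and duration. Filled points passed an adjusted p of 0.05 and dashed lines stand at a 2-fold change: all points of the IC50 panels are open, while 7 are filled at 1 µM 24 h and 6 at 1 µM 72 h.

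*FOS* encodes the founding partner of JUN proteins in AP-1. In DMSO 24 h its log2 signal was -1.38, -0.69, -2.05 and -1.75 on replicates 1 to 4, and in G-1 1 µM 24 h -0.37, -0.10, -0.55 and -0.43. Every array of G-1 1 µM 24 h stood above every array of DMSO 24 h, and replicate 2 of DMSO was nearest. The fold change was 1.11 ± 0.21 (log2, SE, n = 4 per group; adjusted p = 7.92e-04 in limma), which is 2.15-fold. With normexp background correction it was 0.56 (adjusted p = 8.57e-04).

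By 72 h the DMSO arrays themselves had a higher *FOS* signal, of -0.52, -0.65, -0.32 and -0.37. This level was above that of DMSO 24 h on every array, and 2.01-fold higher on average (adjusted p = 0.0126 in limma). It was the sole member called between the DMSO durations, where 3.34% of all genes passed. The difference had an adjusted p of 0.0514 without DMSO 24 h replicate 3, and it was 1.22 within slide 1 and 0.27 within slide 2, where DMSO 24 h had 1 array. *FOS* in G-1 1 µM 72 h was -0.02, -0.37, -0.04 and -0.05, which overlapped DMSO 72 h at replicate 2. Against DMSO 72 h this gave 0.35 ± 0.21 (adjusted p = 0.157, and 0.0452 with normexp background correction and 0.023 from the arrays of the comparison alone), and the change between durations had an interaction of -0.76 ± 0.30 (adjusted p = 0.0578, and 0.00356 without DMSO 24 h replicate 2).

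In G-1 IC50 72 h, the *FOS* signal was -0.03, -0.04, 0.33 and 0.34, and no array overlapped DMSO 72 h. Over all genes, 7.55% were without overlap in this comparison, and of the members *FOS* and *JUNB* were. The *FOS* difference of 0.62 ± 0.21 did not pass after adjustment (adjusted p = 0.289 in limma), with 0.47 within slide 1 and 0.63 within slide 2. At 24 h the IC50 arrays gave -1.01, -0.66, -1.35 and -1.37, and the difference from DMSO was 0.73 within slide 1 and -0.50 within slide 2.

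*FOSB* encodes a close relative of FOS with the same partners. Its log2 signal was -1.39, -1.12, -1.75 and -1.78 in DMSO 24 h and -0.27, -0.25, -0.94 and -1.25 in G-1 1 µM 24 h, where replicate 4 overlapped DMSO. *FOSB* rose by 0.83 ± 0.24 (adjusted p = 0.0127 in limma), although without G-1 1 µM 24 h replicate 1 the adjusted p was 0.051. At 72 h the groups were apart, with -1.71, -1.73, -1.93 and -1.96 in DMSO and -1.02, -0.66, -0.49 and -0.94 in G-1 1 µM. All 4 treated arrays were higher, and *FOSB* rose by 1.05 ± 0.24 (adjusted p = 6.55e-04). With normexp background correction the value was 0.48 at 24 h and 0.59 at 72 h, and it stayed past the threshold. The IC50 gave 0.16 ± 0.24 at 24 h and 0.00 ± 0.24 at 72 h.

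*FOSL1* encodes FRA-1, a FOS family member that lacks a strong activation domain and that ERK signaling stabilizes. Its log2 signal in DMSO 24 h was 2.34, 2.60, 2.25 and 2.14, and in G-1 1 µM 24 h 3.94, 3.85, 3.56 and 3.28. In DMSO 72 h it was 2.41, 2.43, 2.95 and 2.41, and in G-1 1 µM 72 h 4.33, 4.67, 4.77 and 4.46. The treated arrays stood above all DMSO arrays at both durations, and all G-1 1 µM 72 h arrays above all G-1 1 µM 24 h arrays. The 24 h increase of *FOSL1* was 1.32 ± 0.18 (2.50-fold; adjusted p = 4.6e-05 in limma), and the 72 h increase was 2.01 ± 0.18 (4.02-fold; adjusted p = 7.65e-09).

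Both *FOSL1* increases passed in 8 of 8 fits that each left out 1 array. The increase from 24 h to 72 h within slide 3 was 0.90. Relative to DMSO it was 0.68 ± 0.25 (adjusted p = 0.0468 in limma, where 34.1% of all genes passed), and this interaction passed in 5 of 16 fits without 1 array and had an adjusted p of 0.0672 with quantile normalization. In G-1 IC50 the log2 signal ran from 2.11 to 2.67 (24 h) and from 2.43 to 3.19 (72 h), overlapping DMSO both times. The differences of 0.11 (95% confidence interval -0.27 to 0.48) and 0.17 (-0.21 to 0.54) had adjusted p-values of 0.998 and 0.851.

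*FOSL2*, which encodes the related FRA-2, went the other way. Its log2 signal was 3.61, 3.58, 3.74 and 3.62 in DMSO 24 h and 3.68, 3.81, 3.60 and 3.74 in DMSO 72 h. In G-1 1 µM it was 3.55, 3.35, 3.15 and 3.30 at 24 h and 2.65, 2.62, 2.56 and 2.69 at 72 h. Every treated array was below every DMSO array of the same duration, and the 4 arrays at 72 h differed by little among themselves (SD 0.05). *FOSL2* fell by 0.30 at 24 h (SE 0.08; adjusted p = 0.00681 in limma) and by 1.07 at 72 h (SE 0.08; adjusted p = 3.68e-10), which is 2.10-fold lower. The interaction was -0.77 ± 0.11 (adjusted p = 2.53e-05), passed in 16 of 16 fits without 1 array, and the difference between durations within slide 3 was -0.70. In G-1 IC50 the level ran from 3.32 to 3.64 (24 h) and from 3.49 to 3.62 (72 h), with differences from DMSO of -0.15 ± 0.08 at both durations, neither past the threshold.

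**Figure D2:**
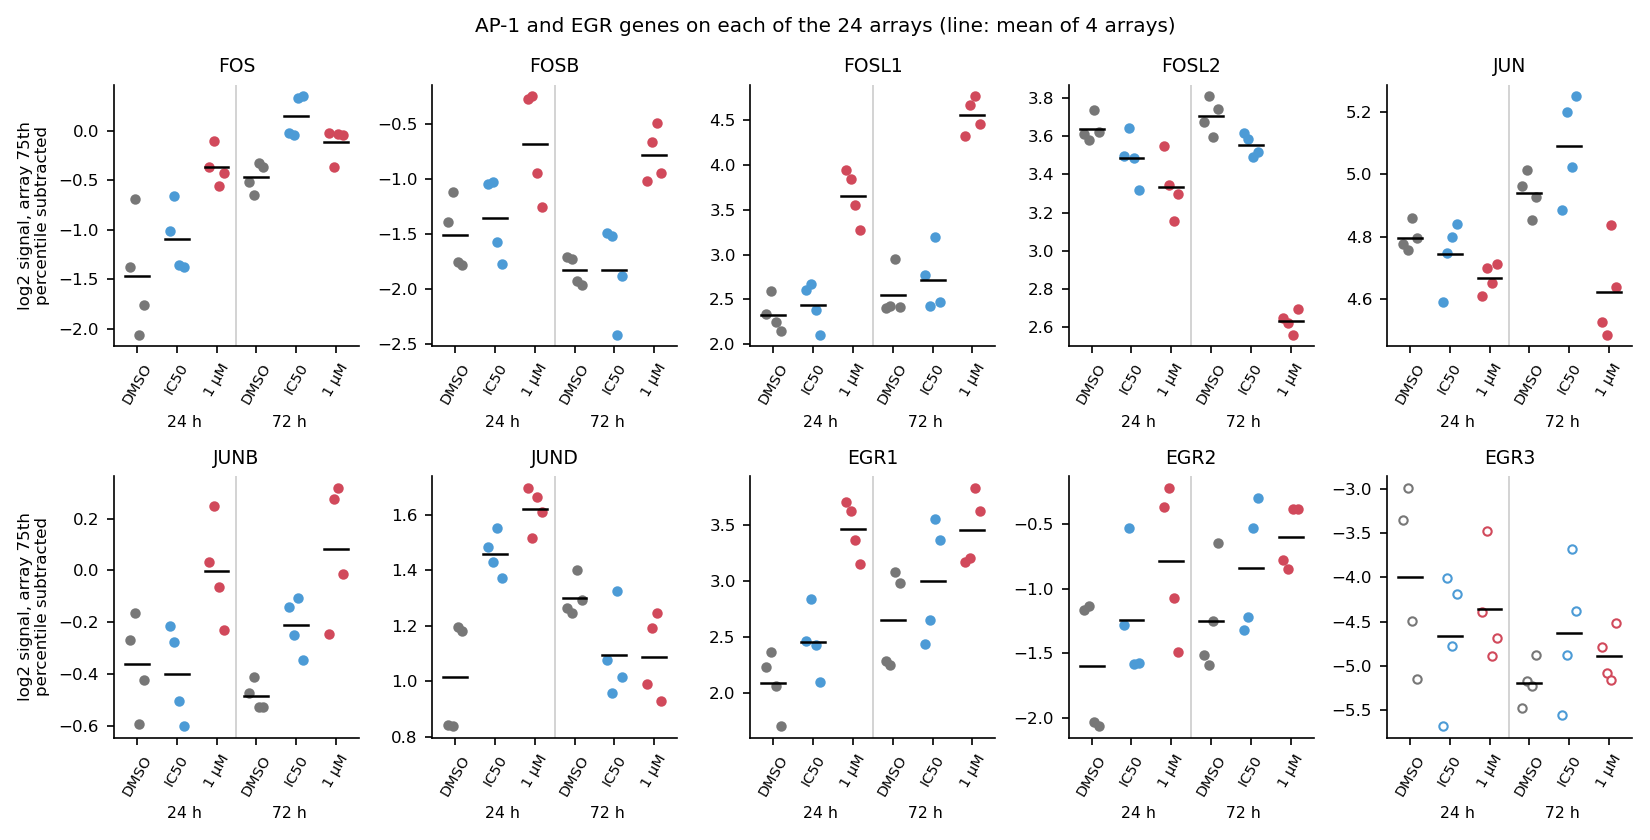
Log2 signal (vertical axis, array 75th percentile subtracted, scaled separately for each gene) of the 10 genes on each of the 24 arrays, by treatment and duration (horizontal axis). Points are arrays, lines are means of 4, and open points mark groups in which not all 4 arrays were above background, which were those of *EGR3*. *FOSL1* was highest and *FOSL2* lowest in G-1 1 µM 72 h, with no overlap with any other group, and *JUND* was high at 24 h in both G-1 doses.

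*JUN* encodes the founding JUN protein, the target of JNK kinases. In DMSO 72 h its log2 signal was 4.96, 5.01, 4.85 and 4.93, and in G-1 1 µM 72 h 4.53, 4.49, 4.84 and 4.64. The treated arrays were all lower, with replicate 3 just below the lowest DMSO array. *JUN* fell by 0.32 (SE 0.08; adjusted p = 0.00214 in limma), or 1.25-fold. At 24 h the difference of -0.13 ± 0.08 did not pass (adjusted p = 0.246), although the arrays did not overlap; it was -0.21 (adjusted p = 0.0381) with quantile normalization and -0.22 (adjusted p = 0.0287) with normexp background correction. The G-1 IC50 72 h arrays lay between 4.89 and 5.25, on average 0.15 ± 0.08 above DMSO (adjusted p = 0.642).

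*JUNB* encodes a JUN protein that often restrains JUN. Its log2 signal was between -0.53 and -0.41 in DMSO 72 h, and in G-1 1 µM 72 h it was -0.24, 0.28, 0.32 and -0.01. The 2 groups did not overlap, and *JUNB* rose by 0.57 ± 0.12 (adjusted p = 4.77e-04 in limma). At 24 h, DMSO was between -0.59 and -0.16 and G-1 1 µM between -0.23 and 0.25, with a shared range. The *JUNB* increase of 0.36 ± 0.12 at 24 h (adjusted p = 0.0341) passed in 3 of 8 fits without 1 array. Its adjusted p was 0.188 with the 50th percentile, 0.0743 from the arrays of the comparison alone and 0.0768 with the slide as a random block. In G-1 IC50 72 h *JUNB* was between -0.35 and -0.11, above every DMSO 72 h array, with a difference of 0.27 ± 0.12 (adjusted p = 0.519).

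*JUND* encodes the JUN protein most tied to the resting state. In DMSO 24 h its log2 signal was 0.84, 0.84, 1.19 and 1.18, in G-1 IC50 24 h 1.48, 1.43, 1.55 and 1.37, and in G-1 1 µM 24 h 1.70, 1.51, 1.66 and 1.61. Both doses were above every DMSO array at 24 h. *JUND* rose at 1 µM by 0.61 ± 0.10 (1.52-fold; adjusted p = 1.76e-04 in limma), whereas at the IC50 the difference was 0.44 ± 0.10 with an adjusted p of 0.069. *JUND* was the sole member without overlap in that IC50 comparison, as were 2.76% of all genes, and the difference was 0.42 within slide 1 and 0.59 within slide 2. Its adjusted p there was 0.0488 when only probes above background on all 24 arrays were tested, 0.0497 with an intensity trend in the prior variance and 0.0485 without DMSO 24 h replicate 3.

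At 72 h the order of *JUND* turned. DMSO gave 1.26, 1.24, 1.40 and 1.29, G-1 IC50 1.08, 0.96, 1.32 and 1.02, and G-1 1 µM 0.99, 1.19, 1.25 and 0.93. Both doses lay below DMSO on average and overlapped it on 1 array each, with differences of -0.21 ± 0.10 at the IC50 (adjusted p = 0.528 in limma) and -0.21 ± 0.10 at 1 µM (adjusted p = 0.0579). The latter had an adjusted p of 0.036 with the 50th percentile, 0.0293 with quantile normalization and 0.037 with normexp background correction. The interaction with duration was -0.82 ± 0.14 at 1 µM (adjusted p = 1.22e-04), which passed in 16 of 16 fits without 1 array. At the IC50 it was -0.65 ± 0.14 with an unadjusted p of 9.81e-05 and an adjusted p of 0.161, where 0.014% of all genes passed and no member did. The 2 interactions share the DMSO arrays. Within slide 3, the 1 µM arrays of 72 h were 0.53 below those of 24 h.

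*EGR1* encodes a zinc finger factor that serum, ERK signaling and stress induce. Its log2 signal in DMSO 24 h was 2.23, 2.37, 2.06 and 1.71, in G-1 IC50 24 h 2.47, 2.84, 2.43 and 2.10, and in G-1 1 µM 24 h 3.71, 3.63, 3.37 and 3.15. The 1 µM arrays stood above all others of that duration, while the IC50 arrays overlapped DMSO. *EGR1* rose at 1 µM by 1.37 ± 0.25 (2.59-fold; adjusted p = 5.48e-04 in limma), and passed in 8 of 8 fits without 1 array.

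At 72 h, *EGR1* in DMSO was 2.29, 2.25, 3.09 and 2.99, and in G-1 1 µM 3.17, 3.21, 3.84 and 3.63. Replicates 1 and 2 were lower than replicates 3 and 4 in both groups. All treated arrays were above all DMSO arrays, with replicate 1 of G-1 1 µM just above replicate 3 of DMSO, and *EGR1* rose by 0.81 ± 0.25 (adjusted p = 0.00773 in limma). The mean level in G-1 1 µM was 3.47 ± 0.25 (SD, n = 4) at 24 h and 3.46 ± 0.32 at 72 h, whereas that of DMSO was 2.09 ± 0.29 and 2.65 ± 0.45. The interaction of -0.56 ± 0.35 did not pass (adjusted p = 0.24). At the IC50 the differences were 0.37 ± 0.25 and 0.36 ± 0.25, neither past the threshold. At 24 h the former was 0.63 within slide 1 and -0.09 within slide 2.

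*EGR2* encodes a relative of EGR1 that is also known as KROX20. Its log2 signal was -1.16, -1.14, -2.03 and -2.06 in DMSO 24 h and -0.36, -0.22, -1.07 and -1.49 in G-1 1 µM 24 h, and the groups overlapped. Each G-1 1 µM 24 h array was above the DMSO 24 h array of the same replicate number. The difference was 0.81 ± 0.32 (adjusted p = 0.0589 in limma), and it passed in 3 of 8 fits without 1 array. Arrays of one number were paired on correlations of 0.17 to 0.28 between their deviations in these same data, while the study describes independent replicates. In a limma fit blocked by replicate number inside each duration, *EGR2* passed at 24 h (adjusted p = 4e-04). It also passed with quantile normalization (adjusted p = 0.0453), with probes above background on all 24 arrays (0.0478) and with an intensity trend (0.0444). At 72 h it was 0.65 ± 0.32 (adjusted p = 0.0776), from -1.52, -1.59, -1.25 and -0.65 in DMSO and -0.78, -0.85, -0.38 and -0.38 in G-1 1 µM. Under normexp background correction both had smaller sizes, of 0.46 and 0.38, with adjusted p-values of 0.0205 and 0.0228. From the arrays of the 72 h comparison alone it was 0.0259. In G-1 IC50, *EGR2* differed from DMSO by 0.36 ± 0.32 at 24 h and 0.41 ± 0.32 at 72 h, neither past the threshold.

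*EGR3*, which encodes a further relative, was well above background on 1 array, of DMSO 24 h, and on no array of the other 5 groups. No fold change is given for it.

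The 2 doses were also compared directly. At 24 h, 5 of 9 members were higher at 1 µM than at the IC50 and none lower, where 26.5% of all genes passed (18.2% higher). These were *EGR1* (1.00 ± 0.25, adjusted p = 0.00588 in limma), *FOSL1* (1.22 ± 0.18, adjusted p = 1.44e-04), *FOS* (0.73 ± 0.21, adjusted p = 0.0144), *FOSB* (0.68 ± 0.24, adjusted p = 0.0399) and *JUNB* (0.40 ± 0.12, adjusted p = 0.023). *FOS*, *FOSB* and *JUNB* did not pass with the 50th percentile, and *FOSL2* did, at -0.32. *FOSB* had an adjusted p of 0.132 without G-1 1 µM 24 h replicate 2, and *FOS* of 0.0534 without G-1 IC50 24 h replicate 4. *EGR2* differed by 0.46 and passed in the same blocked limma fit (adjusted p = 0.0156), with pairs again taken from correlations in these data. For *JUND* the doses differed by 0.16 (95% confidence interval -0.04 to 0.36; adjusted p = 0.219).

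At 72 h, 5 members passed between the doses, where 65.1% of all genes did. *FOSL1* was higher at 1 µM by 1.84 ± 0.18 (adjusted p = 2.94e-08 in limma), *FOSB* by 1.05 ± 0.24 (adjusted p = 6.99e-04) and *JUNB* by 0.30 ± 0.12 (adjusted p = 0.0435, and 0.154 without G-1 1 µM 72 h replicate 3). *FOSL2* was lower, at -0.92 ± 0.08 (adjusted p = 3.76e-09), and so was *JUN*, at -0.47 ± 0.08 (adjusted p = 5.16e-05). *JUND* differed by -0.01 (95% confidence interval -0.20 to 0.19) and *FOS* by -0.27 (-0.71 to 0.17). With the 50th percentile, the median fold change of all genes moved from 0.05 to -0.12 at 24 h and to -0.11 at 72 h, and the share of calls that were higher from 68.6% to 19.1% and from 55.1% to 36.8%.

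In order of mean level over the 6 groups, *FOSL1* ran from DMSO 24 h through G-1 IC50 24 h, DMSO 72 h and G-1 IC50 72 h to G-1 1 µM 24 h and 72 h, and only the last 2 steps were free of overlap between neighbors. *FOSL2* ran from G-1 1 µM 72 h to DMSO 72 h, with the sole gap above G-1 1 µM 72 h. For *FOSB* the sole gap between neighbors separated G-1 1 µM 72 h from G-1 IC50 24 h below it, while G-1 1 µM 24 h, the highest on average, overlapped groups below it, and for *FOS* it lay between the DMSO and IC50 groups of 24 h below and the other 4 groups above. The *FOS* gap was narrow, between -0.6566 on the highest G-1 IC50 24 h array and -0.6517 on the lowest DMSO 72 h array. *JUN*, *JUNB*, *JUND*, *EGR1* and *EGR2* showed overlap between all neighbors in their order.

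The genes most like each member over the 24 arrays were taken from 12703 genes that were above background on all of them. Over these arrays, which share slides and groups, *FOSL1* was most like *SPRY4* (Pearson r = 0.99), which encodes a feedback inhibitor of growth factor signaling to ERK, followed by *REEP4* and *MIS18A* (0.98 each). *FOSL2* was most like *PIGZ* (0.96), *FOSB* like *TMEM167B* (0.89), *JUN* like *NID1* (0.88) and *JUNB* like *KIF22* (0.87). *EGR1* was most like *GAS2L3* (0.91) and *PRC1* (0.89), which both encode proteins of the spindle and of cytokinesis. *EGR2* was most like *EGR1* itself (0.86), *FOS* like *IL1RAP* (0.84), and *JUND* like *PCYT2* (0.88) and *SLC25A1* (0.86), both of lipid metabolism. Each value describes these arrays.

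The bZIP proteins that pair or compete with FOS and JUN proteins formed a list of 14 genes, of which 13 were tested. At G-1 1 µM, 5 rose and none fell at 24 h, and 4 rose and 3 fell at 72 h, with median log2 fold changes of 0.09 and 0.10. Of all genes tested, 20.0% rose and 10.5% fell at 24 h, and 35.2% and 31.0% at 72 h, with medians of 0.04 and 0.03. *JDP2*, which encodes a repressor that binds JUN proteins, increased 1.19 ± 0.13 on the log2 scale at 24 h (adjusted p = 6.47e-06 in limma) and 2.00 ± 0.13 at 72 h (adjusted p = 9.86e-11). It also passed at the IC50 at 24 h, by 0.64 (adjusted p = 0.0474). *MAFF* rose by 1.11 and 1.62 and *BATF3* by 0.53 and 0.74 at 24 h and 72 h. *ATF3*, a stress-induced partner of JUN, fell by 0.91 at 72 h (adjusted p = 8.57e-06), with -0.24 at 24 h (adjusted p = 0.203).

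Of the 4 EGR relatives and corepressors, *NAB1* and *NAB2*, which encode the proteins that dampen EGR activity, were tested and neither passed. *NAB2* differed by 0.40 ± 0.16 at 24 h (adjusted p = 0.0611 in limma) and by 0.06 at 72 h, and *NAB1* by 0.03 and -0.07. Among 18 kinases and factors upstream of the members, 6 rose and 1 fell at 24 h and 8 rose and 4 fell at 72 h, with medians of 0.15 and 0.17. These counts stood beside 30.6% of all genes called at 24 h and 66.1% at 72 h. At 72 h *ELK3*, a partner of serum response factor, rose by 1.37 (adjusted p = 6.24e-10), and the ERK pathway kinase genes *MAP2K1* and *RPS6KA1* rose by 0.75 and 0.74. In the same pathway at 72 h, *MAPK3*, which encodes the kinase ERK1, fell by 0.30 (adjusted p = 0.0268) and *MAP2K2* differed by 0.05 (adjusted p = 0.661), both named after their values were seen. *SRF*, which encodes serum response factor, differed by -0.00 at 24 h and 0.03 at 72 h.

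Of 29 other immediate early genes, 27 were tested; 10 rose and 2 fell at G-1 1 µM 24 h, and 17 rose and 4 fell at 72 h. The median was 0.19 at 24 h and 0.50 at 72 h. Over all genes it was 0.04 and 0.03, with 30.6% of them called at 24 h and 66.1% at 72 h. *IER3*, a stress and growth factor response gene, had a log2 signal between -2.43 and -1.51 in DMSO 24 h and between -1.07 and 0.16 in G-1 1 µM 24 h, and rose by 1.59 ± 0.23, and at 72 h by 3.46 ± 0.23 (adjusted p = 1.19e-10 in limma). *MYC* rose by 0.65 and 1.98, and *CCN2*, which encodes a matrix protein induced by serum, by 0.63 and 1.61 at the 2 durations. *CCN1*, its relative, rose by 0.58 and 0.55. *BTG2*, an antiproliferative gene, fell by 0.51 at 24 h and by 2.38 at 72 h (adjusted p = 1.09e-12). *ARC* was above background on all 4 arrays in the G-1 1 µM groups alone, with 3 of 4 in DMSO 24 h and 2 of 4 in DMSO 72 h, and so it passed the filter through the groups where it was high. It is among the 10 and the 17 genes counted, and its differences of 0.83 and 2.06 are given as a description with no test. At the IC50, *KLF2* fell at 24 h (adjusted p = 0.0474) and at 72 h (adjusted p = 0.0113), by 0.49 and 0.51, and *KLF10* rose by 0.54 at 72 h (adjusted p = 0.0389), both named after their values were seen.

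Textbook target genes of AP-1 were counted next. Of 21, 18 were tested, of which 9 rose and 1 fell at 24 h, and 12 rose and 2 fell at 72 h, when the median log2 fold change was 1.03 (0.36 at 24 h). Beside them, 20.0% of all genes rose and 10.5% fell at 24 h, and 35.2% and 31.0% at 72 h. *IL11*, a cytokine gene, rose by 1.096 ± 0.13 (24 h) and 2.88 ± 0.13 (72 h) (adjusted p = 1.24e-12 in limma). At 24 h, *PLAUR*, which encodes the urokinase receptor, rose by 0.80, and at 72 h by 2.32. *MMP3*, which encodes a matrix metalloproteinase, did not pass at 24 h (0.56, adjusted p = 0.222) and rose by 3.29 ± 0.34 at 72 h, with 3 of 4 DMSO 72 h arrays above background. *MMP1*, the collagenase gene in which the AP-1 site was described, was not well above background on any DMSO 72 h array and was above it on all 4 of G-1 1 µM 72 h. Against the lowest signal above background on each DMSO array, it was at least 14.8-fold higher. It passed the filter through G-1 1 µM 72 h alone, so that this bound is a description with no test, although *MMP1* is among the 12 genes counted at 72 h. At 24 h it was above background on 1 of 4 arrays in each group. At the IC50, *PLAU* fell by 0.47 at 72 h (adjusted p = 0.00503), and it too was named after its value was seen.

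Of 18 EGR1 target genes, 14 were tested. Of these, 2 rose and 1 fell at 24 h, and 7 rose and 1 fell at 72 h, with medians of 0.12 and 0.25. Over all genes, 30.6% were called at 24 h (20.0% higher) and 66.1% at 72 h (35.2% higher). At 72 h *GADD45A*, a growth arrest gene, rose by 1.68 ± 0.11 (adjusted p = 8.19e-11 in limma), *THBS1* by 0.99, *F3* by 0.78 and *CDKN1A* by 0.68. At 24 h *F3* rose by 0.43 (adjusted p = 0.0352), whereas *GADD45A* (0.11), *THBS1* (0.26) and *CDKN1A* (0.45) did not pass. The lists were written with earlier results of these data known, so that their counts describe the lists and no more.

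**Figure D3:**
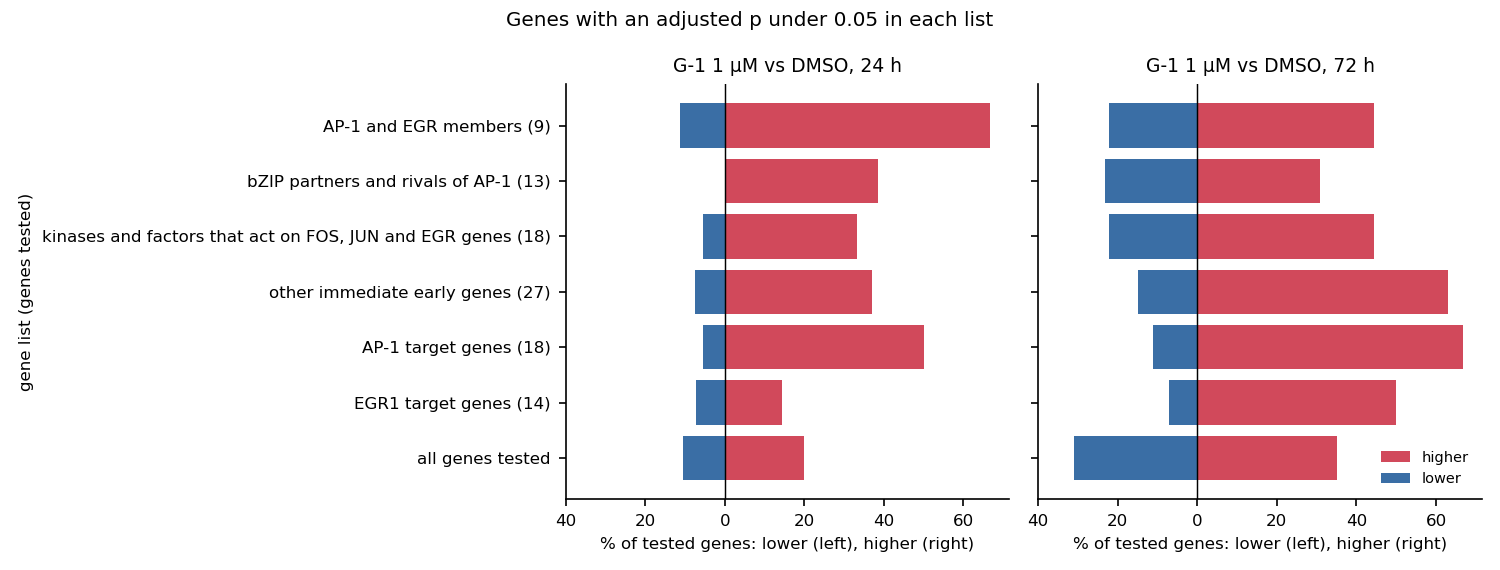
Share of tested genes (horizontal axis, percent) with an adjusted p under 0.05 that were higher (right) or lower (left) at G-1 1 µM than in DMSO at 24 h and at 72 h, for the members, 5 lists (number tested in brackets) and all genes tested (vertical axis). Of all genes, 20.0% were higher and 10.5% lower at 24 h, and 35.2% and 31.0% at 72 h, while 9 of 18 AP-1 targets were higher at 24 h and 12 of 18 at 72 h. *MMP1* is among these 12 and *ARC* among the immediate early genes called. Both passed the filter through G-1 1 µM groups alone.

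**Figure D4:**
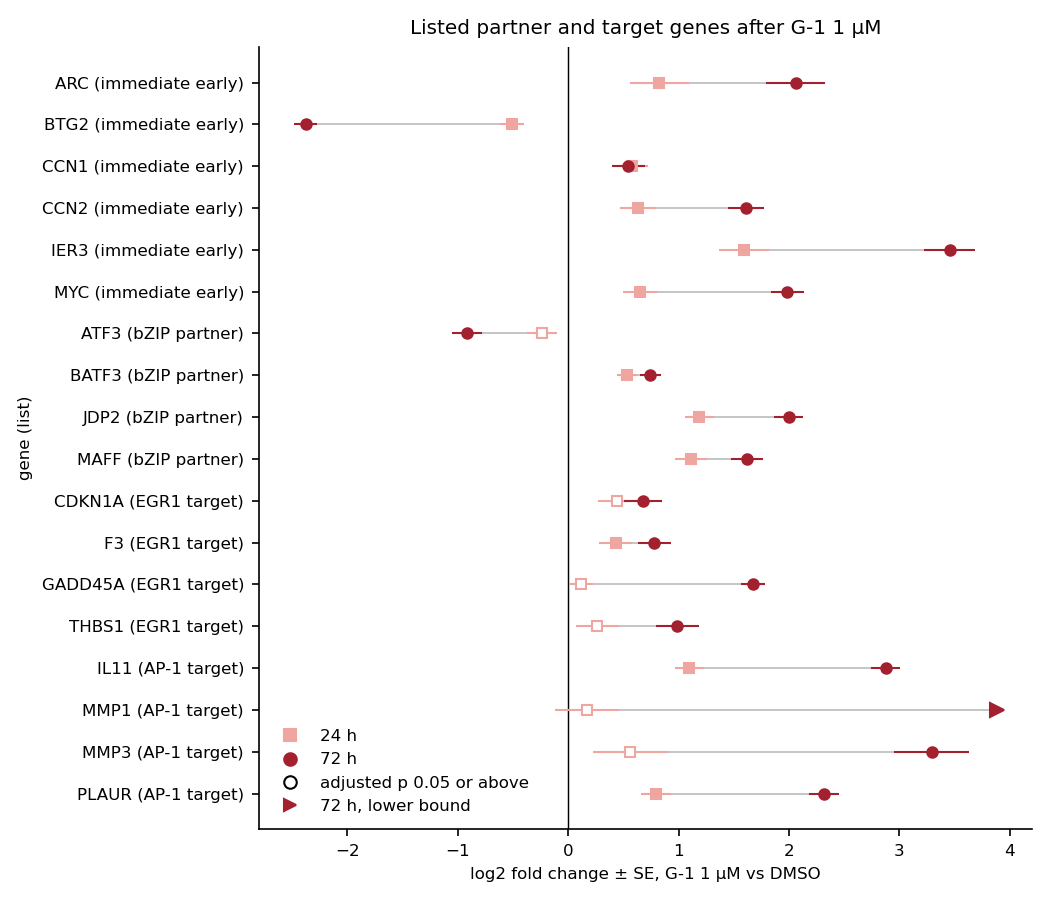
Log2 fold change of G-1 1 µM against DMSO (horizontal axis, bars are ± SE of the limma fit) for the named genes of 4 lists (vertical axis) at 24 h (squares) and 72 h (circles), with open symbols where the adjusted p was 0.05 or above. *ARC* and *MMP1* were above background on all arrays of a group at 1 µM alone, so that their symbols, filled or open, are a description with no test. The triangle of *MMP1* at 72 h is the lower bound of 3.88, as no DMSO 72 h array was above background, and *BTG2* and *ATF3* lie left of 0.

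**Figure D5:**
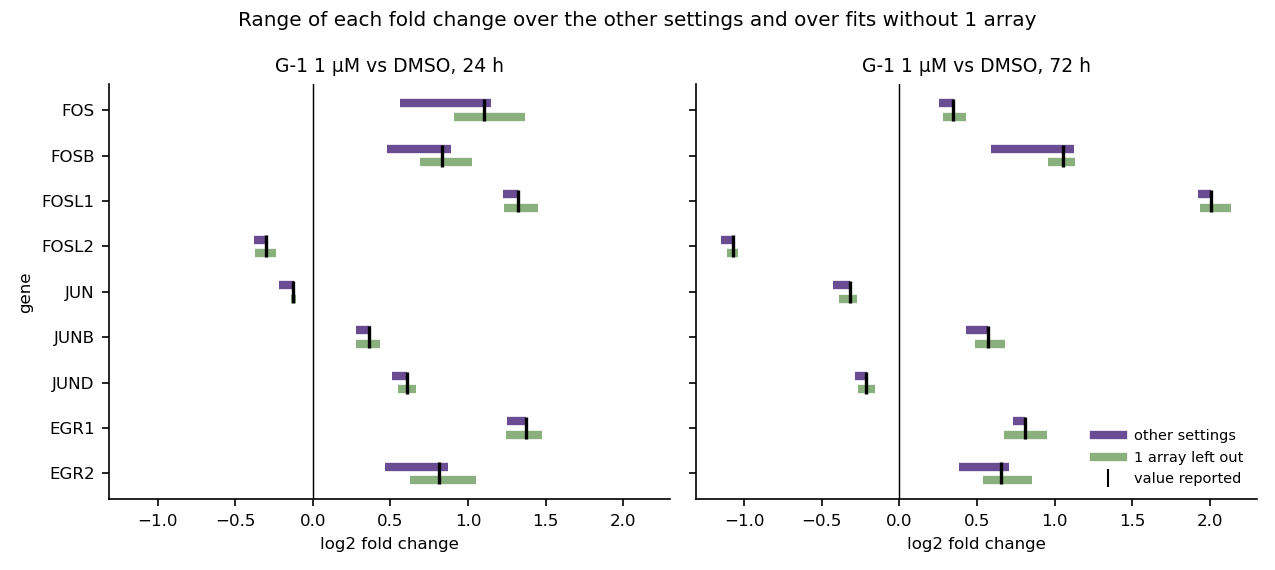
Range of the log2 fold change of G-1 1 µM against DMSO (horizontal axis) for the 9 tested genes (vertical axis) over the other processing settings (purple) and over the 8 fits that each left out 1 array of the comparison (green), with the reported value as a black line. No bar crosses 0, and the settings moved *FOS* at 24 h most, down to 0.56.

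The plot of ranges gives the spread of each value over the settings. At 24 h, *FOSL1* stayed between 1.22 and 1.32 over the other settings and *EGR1* between 1.25 and 1.37. At 72 h, *FOSL1* stayed between 1.93 and 2.01, whereas *FOSB* ran from 0.59 to 1.12.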

How the data were processed

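Total RNA was labeled and hybridized to single-color Agilent arrays, 4 per group. Per the file headers, spots were quantified with Agilent Feature Extraction 12.1.1.1 (10.7.3.1 in the submitters' processing notes), and the deposited processed signal is an intensity after background subtraction. A log2 table deposited by the authors held values centered on each probe's median (column medians from -0.35 to 0.56), which differed from the values computed here, centered likewise, by a median of 0.00189.

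Here, the log2 of the processed signal minus the 75th percentile of the array was taken, and spots of a probe were averaged. Probes were kept when 1 group or more had them well above background on each of its 4 arrays. A model with 6 group means over 24 arrays was fitted with limma 3.58.1 (R 4.3.3) with Benjamini-Hochberg adjustment over 22970 probes at 0.05. A gene was represented by its brightest probe. The script was tested on simulated data. Probe names were matched to symbols through RefSeq. The members were given by name. From each list, up to 4 genes with the largest change called at G-1 1 µM were named, besides *ATF3*, *NAB1*, *NAB2*, *SRF*, *MYC*, *CCN1*, *CCN2* and *PLAUR* whatever their values, and for each tested member up to 3 of the most correlated genes; some genes that the rule names are not reported here. The members and lists were chosen with earlier results of these data known. Deviations of same-numbered arrays from their group means correlated by more than 0.1 in all 4 pairs in 2 comparisons, G-1 1 µM 24 h against DMSO 24 h and against G-1 IC50 24 h, where the replicate number was taken to pair the arrays. That pairing rests on these same data, while the study describes independent replicates and an unpaired t-test. The slide as a random block was added after the data were seen. For normexp (offset 50) the median signal was used. Normexp, quantile normalization, the 50th percentile, other filters, blocks, the methods' t-test and leaving out each array were the alternatives. Precision was limited by 4 arrays per group.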

Additional observations from a re-analysis of the deposited data

Results flagged for a closer look

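Among the 54 groups of 4 arrays of the tested members, 2 held an array far from the other 3, where chance gives about 1 in 20. For *FOS* in G-1 1 µM 72 h, replicate 2 stood at -0.37, below the other 3, and the gap took 0.9328 of the whole range. For *FOSL1* in DMSO 72 h, replicate 3 stood at 2.95, above the other 3, and the gap took 0.9674 of the range. Both shares were above Dixon's 95% critical value for 4 arrays.

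The change at G-1 1 µM against DMSO differed between 24 h and 72 h in limma's interaction term, given as 72 h minus 24 h on the log2 scale. This term passed in 3 of the 9 members, beside 34.1% of all genes, so that the count lay near the background. Of the members, it was 0.6823 for *FOSL1* (past the threshold in 5 of 16 fits without 1 array), -0.7715 for *FOSL2* and -0.8189 for *JUND*. Of the partner, kinase and immediate early genes, it was 0.8088 for *JDP2*, -0.6764 for *ATF3*, 1.1999 for *ELK3*, 0.4172 for *MAP2K1*, 0.4502 for *RPS6KA1*, 1.232 for *ARC*, -1.869 for *BTG2*, 0.9834 for *CCN2*, 1.8631 for *IER3* and 1.3327 for *MYC*. Of the target genes, it was 1.5635 for *GADD45A*, 0.7272 for *THBS1*, 1.7809 for *IL11*, 2.7304 for *MMP3*, 1.5163 for *PLAUR* and 4.7996 for *MMP1*. The value of *MMP1* rests on groups below background and is not a bound. As *ARC* and *MMP1* passed the filter through G-1 1 µM groups alone, their values here are a description with no test.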

How the results depend on the processing

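No called member changed direction under any alternative. At IC50 24 h, the count of members called went from 0 to 1 with probes above background on all 24 arrays or an intensity trend. It also went to 1 with the replicate block, over all arrays or within each duration. At IC50 72 h, it went from 0 to 2 with the block within each duration. Under that last block, 0.752% of all genes were called at IC50 24 h and 2.28% at 72 h. Without a block these shares were 0.246% and 0.906%. At 1 µM 24 h, the count of members went from 7 to 3 with a 2-fold limit or the methods' t-test unadjusted. It went to 2 with that test adjusted, and at 72 h from 6 to 3 under these 3. It rose at 24 h to 9 with quantile normalization or normexp (*JUN* and *EGR2* added), and at 72 h to 9 with normexp or the block within each duration (*FOS*, *JUND* and *EGR2* added) and to 8 from the arrays of the comparison alone. Between the doses at 24 h it went from 5 to 2 under these 3, and to 3 with the 50th percentile, with the arrays of the comparison alone or with the slide as a random block, and at 72 h from 5 to 2 under the same 3. The interaction at the IC50 went from 0 to 1 with either replicate block, and at 1 µM from 3 to 0 with the 2-fold limit and to 5 with the block within each duration. Between the DMSO durations it went from 1 to 0 with the 50th percentile, no filter, the arrays of the comparison alone or the adjusted t-test, and to 2 with the replicate block. With the 50th percentile at 1 µM 24 h, the share of all genes called went from 30.6% to 15.2%. There the bZIP list went from 5 to 3 calls, the kinases from 7 to 0 and the EGR1 targets from 3 to 1. The cause was not tested.

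Without 1 array, the counts ranged from 0 to 1 at IC50 24 h (1 without DMSO 24 h replicate 3), 5 to 8 at 1 µM 24 h, 6 to 7 at 1 µM 72 h, 2 to 5 between the doses at 24 h (3 without G-1 1 µM 24 h replicate 2 or G-1 IC50 24 h replicate 3, 2 without G-1 IC50 24 h replicate 4), 4 to 6 at 72 h, 2 to 3 for the interaction at 1 µM and 0 to 1 between the DMSO durations (0 without DMSO 24 h replicate 3). Over the settings, the share of all genes called ran from 1.12% to 37.2% at 1 µM 24 h and from 12.0% to 71.0% at 72 h. Arrays with the same replicate number in groups of one duration correlated between -0.1126 and 0.485 in their deviations, over 0.1 in 17 of 24 pairs, and 56 of 120 best matches had the same number. All 4 pairs were over 0.1 for G-1 1 µM 24 h against DMSO 24 h and against G-1 IC50 24 h, where the numbers were taken to pair the arrays, and not in the other comparisons. In these 2, the block within each duration added *EGR2* and changed no other call of a member. Pairs in both comparisons would also pair G-1 IC50 24 h with DMSO 24 h, where the correlations were 0.2137, -0.1126, 0.394 and 0.1872. There replicate 2 alone fell below the limit, so that the check does not settle which arrays are paired. The other comparisons were not taken as paired. There the block over all arrays and the block within each duration gave *JUND* adjusted p-values of 0.0114 and 0.0153 at IC50 24 h and of 0.0251 and 0.0286 at 1 µM 72 h, and the latter block gave 0.013 for *FOS* and 4.61e-04 for *EGR2* at 1 µM 72 h, and 0.00873 for *FOS* and 0.0393 for *EGR1* at IC50 72 h.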
